A study of Mus musculus with 13 samples.

Results

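Keratins are the intermediate filament proteins of epithelial cells, and 6 of them were followed in single cells of the mouse liver: the type II keratins Krt7 and Krt8 and the type I keratins Krt18, Krt19, Krt20 and Krt23, which are 6 of the 55353 gene symbols in the files. They were counted in raw unique molecular identifiers (UMIs, one per captured RNA molecule) in 2 cell classes. Biliary epithelial cells (BEC), the cells that line the bile ducts, were barcodes with at least 1500 UMIs, at least 2 Epcam UMIs and no Ptprc UMI, and hepatocytes were barcodes of the same depth with Alb at 1% or more of their UMIs and neither Epcam nor Ptprc. This gave 4242 BEC (4.44%) and 110 hepatocytes among 95563 cells of 13 libraries. The gates used Epcam, Ptprc and Alb only, so the keratin values played no part in choosing the cells.

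A keratin filament forms from pairs of one type I and one type II chain. Hepatocytes make almost only the pair of Krt8 and Krt18, whereas bile duct cells carry Krt7 and Krt19 in addition and are recognised by them in tissue sections. The DDC diet blocks heme synthesis, plugs small bile ducts with porphyrin and is known for ductular reaction and for hepatocyte aggregates of Krt8 and Krt18, called Mallory-Denk bodies.

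Livers came from male C57BL/6J mice between 6 and 12 weeks of age. D0 mice received no DDC, and the others were fed chow with 0.1% DDC until day 3 (D3), 5 (D5), 9 (D9), 19 (D19, which includes a library from day 18) or 25 (D25). The STOP library came from mice given DDC until about the same time as D19 and then 7 days of recovery. Each diet time had 1 library from isolation protocol A and 1 from protocol B, which sort different cell mixtures, both with an Epcam+ gate, and STOP was made with protocol B. The labels do not tie mice to libraries, so a library is the unit here and p-values measure only the spread between libraries, part of which may be technical. D3 and D5 are called onset and D9 to D25 progression. Since UMIs are given as a share of all UMIs of a class, a keratin level is a level relative to the other RNA of the same cells.

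The libraries held between 29307190 (D3 B) and 108602421 (D25 A) UMIs, and no pair of libraries shared more than 0.519% of the cell barcodes of the smaller one. BEC numbered 29 to 1145 in 11 libraries, while D3 A with 14 and D5 A with 4 stayed below the 20 cells required for a comparison. In 10 of the 11 libraries 13 of 14 BEC markers were found in at least 10% of the gated cells, and the summed level of the markers, Epcam included, was 16782 to 35789 CPM (UMIs per 1000000 UMIs of the class). The D0 B library went against the BEC label: 2 of its 29 gated cells had UMIs of at least 3 of 12 biliary markers, against 4132 of 4213 (98.1%) in the other libraries. Its BEC markers summed to 2573 CPM and its leukocyte markers to 65611 CPM, against 221 to 969 CPM in the other libraries of 20 or more BEC. Steady state BEC therefore rest on D0 A alone, and the test of DDC against D0 is given with and without D0 B. Hepatocytes reached 20 cells in D25 B (27) and STOP (56), followed by D0 A with 17. In the 2 larger libraries the 10 hepatocyte markers other than Alb, which the gate used, were each found in at least 10% of the cells, with Ttr (transthyretin) at 16760 and 13429 CPM and Apoa1 (an apolipoprotein) at 12612 and 12681 CPM.

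The 6 genes lie in the 2 keratin clusters of the mouse genome (RefSeq, build GRCm38.p6). The type II genes and Krt18 are on chromosome 15, Krt7 at chr15:101412403-101427806 on the plus strand, Krt8 at chr15:101996711-102004342 on the minus strand and Krt18 at chr15:102028216-102032026 on the plus strand. Krt8 and Krt18, the most abundant pair, are neighbours 23873 bases apart that are read away from each other, although their proteins belong to different types. The other type I genes are on chromosome 11 and on the minus strand, Krt20 at chr11:99428385-99438153, Krt23 at chr11:99477973-99493120 and Krt19 at chr11:100140810-100145926. The Krt8 pseudogene Krt8-ps, also in the files, had no UMI in the summed BEC and hepatocytes.

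RefSeq promoters (250 bases before and 50 after the annotated start) were found for 5 of the 6 members. They are shown because Krt7, Krt8 and Krt18 were higher, and Krt23 lower, in BEC of the 8 DDC libraries with 20 or more BEC than in D0 A, and because Krt20 was concentrated in a duct subset. Capitals mark exact matches on either strand to 4 motifs, and matches may overlap. The TATA box was searched as TATAAA. The site of AP-1, a factor of injury responses, was searched as TGACTCA. The site of the TEAD factors, which bind YAP, was searched as CATTCC. The GC box of the SP factors was searched as GGGCGG.
Krt7: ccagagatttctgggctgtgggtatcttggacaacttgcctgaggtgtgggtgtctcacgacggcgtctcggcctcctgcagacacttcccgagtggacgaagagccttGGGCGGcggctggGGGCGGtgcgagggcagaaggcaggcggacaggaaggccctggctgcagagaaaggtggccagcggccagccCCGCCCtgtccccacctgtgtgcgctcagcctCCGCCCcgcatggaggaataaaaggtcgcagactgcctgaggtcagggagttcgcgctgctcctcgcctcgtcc
Krt8: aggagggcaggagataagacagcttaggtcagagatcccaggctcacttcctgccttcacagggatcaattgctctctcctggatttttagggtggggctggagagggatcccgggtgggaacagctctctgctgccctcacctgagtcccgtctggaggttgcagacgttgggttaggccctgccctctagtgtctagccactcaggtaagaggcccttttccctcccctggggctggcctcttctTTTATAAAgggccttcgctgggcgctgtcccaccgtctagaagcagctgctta
Krt18: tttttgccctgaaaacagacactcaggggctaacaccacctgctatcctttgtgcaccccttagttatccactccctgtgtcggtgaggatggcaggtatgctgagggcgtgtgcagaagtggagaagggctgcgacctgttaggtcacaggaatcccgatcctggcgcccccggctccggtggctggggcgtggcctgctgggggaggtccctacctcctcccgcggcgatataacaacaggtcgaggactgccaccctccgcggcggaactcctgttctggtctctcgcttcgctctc
Krt20: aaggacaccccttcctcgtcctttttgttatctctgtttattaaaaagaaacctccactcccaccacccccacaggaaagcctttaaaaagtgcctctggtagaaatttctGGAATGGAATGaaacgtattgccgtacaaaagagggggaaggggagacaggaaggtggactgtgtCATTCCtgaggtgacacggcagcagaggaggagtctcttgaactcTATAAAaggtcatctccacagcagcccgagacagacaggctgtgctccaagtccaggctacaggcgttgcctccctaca
Krt23: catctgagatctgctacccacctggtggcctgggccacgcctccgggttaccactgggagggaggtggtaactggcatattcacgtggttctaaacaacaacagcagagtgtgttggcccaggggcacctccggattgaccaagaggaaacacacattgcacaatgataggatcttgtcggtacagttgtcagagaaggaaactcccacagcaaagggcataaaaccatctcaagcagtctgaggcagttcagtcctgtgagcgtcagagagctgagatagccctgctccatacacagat
The sequences, each 5′ to 3′ on the strand of the gene, are chr15:101412153-101412452 for Krt7, chr15:102004293-102004592 for Krt8, chr15:102027966-102028265 for Krt18, chr11:99438104-99438403 for Krt20 and chr11:99493071-99493370 for Krt23. Krt7 held 4 GC boxes, and 35.7% of 32851 RefSeq promoters of this length hold at least 1. Krt8 and Krt20 held a TATA box, as do 13.6% of promoters. In Krt8 the box overlaps its own reverse complement and so counts on both strands. Krt20 held 3 TEAD matches, of which 2 overlap by a base, and 14.7% of promoters hold at least 1. Krt18 and Krt23 held none of the 4 motifs. None of the 5 promoters held the AP-1 letters, which 5.20% of promoters have, and that of Krt19 could not be searched. A match is a description of letters and not a site.

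Across cell classes the keratins fell into 3 patterns. Krt8 and Krt18 were high in BEC and also high in hepatocytes of D25 B and STOP, the 2 libraries with 20 or more hepatocytes. Krt7 and Krt19 were high in BEC and in mesothelial cells, and Krt23 was high in BEC only among the 6 classes measured. The 17 hepatocytes of D0 A, too few for a comparison, had only 360 CPM of Krt8 and 113 CPM of Krt18. Over the 10 BEC libraries without D0 B the median level was 3506 CPM for Krt18, 2933 CPM for Krt8, 1497 CPM for Krt19, 335 CPM for Krt7, 109.7 CPM for Krt23 and 2.69 CPM for Krt20. These are UMI levels at one end of each RNA and were not divided by length, so the order describes molecules counted. Krt18 and Krt8 were neighbours whose ranges overlapped (1955 to 4751 CPM and 2275 to 3611 CPM), whereas the Krt19 range (713 to 2060 CPM) lay below that of Krt8 and above that of Krt23 (58.4 to 238 CPM). Krt20 reached 0.564 to 11.2 CPM.

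Leukocytes, which should lack keratins, were taken as the background, whose source was not tested. Their highest level in any of 13 libraries was 26.4 CPM for Krt18, 25.4 CPM for Krt8, 21.7 CPM for Krt19, 6.55 CPM for Krt7, 1.14 CPM for Krt23 and 0.142 CPM for Krt20. With each cell thinned to 1500 UMIs, the median library had a Krt8 UMI in 91.0% of BEC, Krt18 in 91.6%, Krt19 in 70.6%, Krt7 in 30.3%, Krt23 in 13.4% and Krt20 in 0.293%. In thinned leukocytes the largest share in a library was 5.57% (Krt18), 4.51% (Krt19), 4.21% (Krt8), 0.936% (Krt7), 0.160% (Krt23) and 0.0223% (Krt20). The median depth before thinning was 9561 to 21824 UMIs per cell in BEC without D0 B and 3335 to 14746 in leukocytes.

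Cells with both Msln and Upk3b, markers of the mesothelium that covers the liver, carried Krt7 at 416 to 989 CPM and Krt19 at 438 to 1292 CPM in the 5 libraries with 20 or more of them. Both ranges overlapped those of BEC. Krt8 was lower there, at 302 to 821 CPM, and so was Krt18, at 278 to 675 CPM. Krt23 reached only 1.87 to 9.61 CPM in mesothelial-gated cells, below its lowest BEC library of 58.4 CPM. Mesenchymal-gated cells had Krt19 at 0 to 840 CPM and Krt7 at 0 to 395 CPM in 11 libraries, but the gates overlap, as 29 of the 44 mesenchymal-gated cells of D19 B, the highest library, also met the mesothelial gate. Without such cells, Krt19 was at most 24.9 CPM and Krt7 at most 7.33 CPM in the 9 libraries with 20 or more cells left. Endothelial-gated cells had at most 88.2 CPM of any of the 6 keratins.

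**Figure D1:**
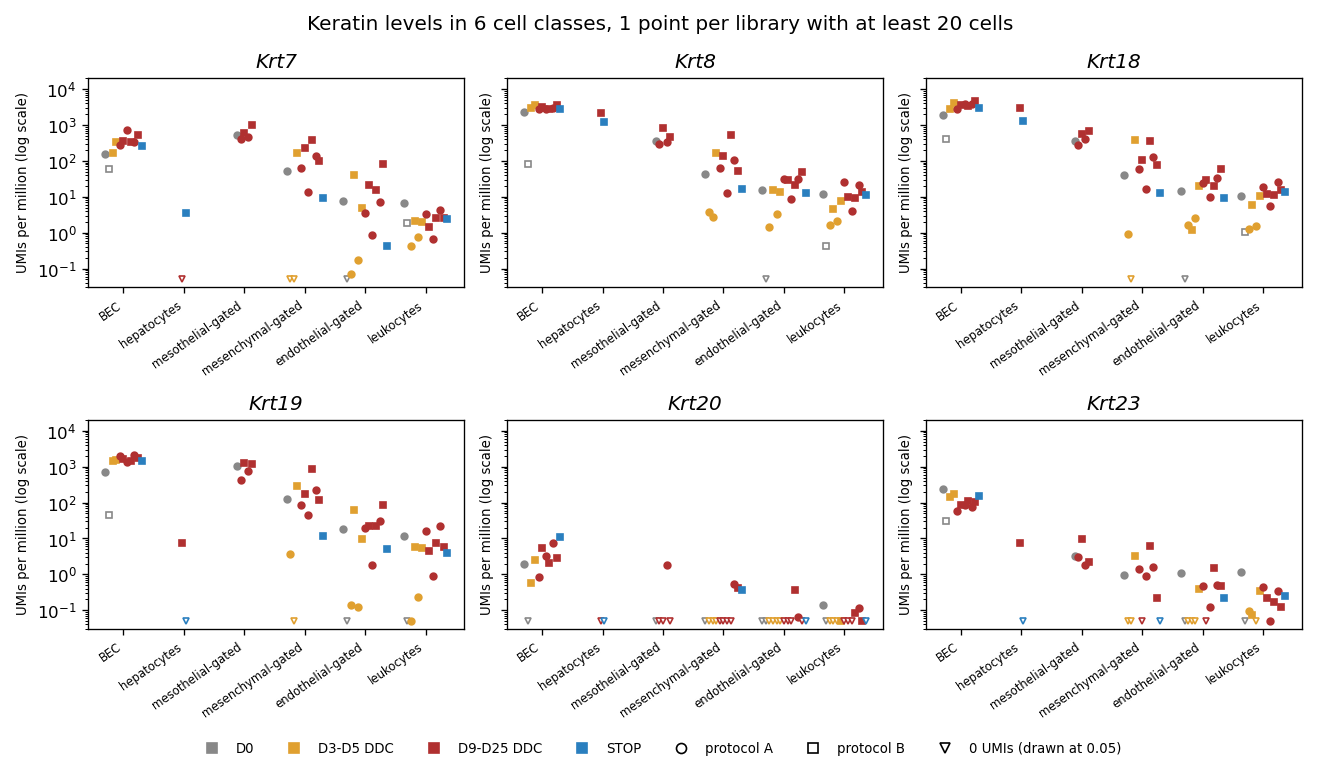
Levels of the 6 keratins (CPM, log scale) in 6 gated cell classes, with 1 point per library of at least 20 cells, coloured by diet stage and shaped by protocol. Krt8 and Krt18 are high in BEC and in hepatocytes, which are drawn for D25 B and STOP only. Krt7 and Krt19 are high in BEC and mesothelial-gated cells. Krt23 stands at 58.4 CPM or more in all BEC libraries but D0 B (open square).

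BEC were next compared with hepatocytes of the same library, which asks which keratins separate the duct cell from its neighbour. Krt19, Krt7 and Krt23 were higher in BEC, whereas the Krt8 and Krt18 levels did not pass the test. Krt19 had 9379 and 5347 UMIs in BEC of D25 B and STOP (1778 and 1459 CPM) against 1 and 0 in hepatocytes. Krt7 had 2824 and 948 UMIs in BEC (535 and 259 CPM) against 0 and 1 in hepatocytes. Krt23 had 557 and 542 UMIs in BEC (106 and 148 CPM) against 1 and 0. Summed over both libraries, the hepatocytes thus held a single UMI of each of these genes among 429111. The BEC level was 707 times that of hepatocytes for Krt19 (95% counting interval 127 to 27918), 181 times for Krt7 (32.5 to 7153) and 52.7 times for Krt23 (9.45 to 2085).

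In edgeR's quasi-likelihood test with library as block, the log2 fold change of BEC over hepatocytes was 8.76 ± 0.80 (SE) for Krt19 (adjusted p = 1e-25), 6.65 ± 0.80 for Krt7 (adjusted p = 5.56e-15) and 5.12 ± 0.94 for Krt23 (adjusted p = 8.74e-07). Thus 3 of the 5 members tested were called, all higher in BEC, where 26.1% of all 10589 genes were called and 15.3% were called higher. The test had 2 libraries a class, both class sums of a library share its free RNA (RNA outside cells that enters the droplets), and the residual degree of freedom was 1, so its p-values rest on the spread estimated over all genes. Krt20 did not pass the filter on low counts: it had 56 UMIs in BEC (6.26 CPM) and 0 in hepatocytes, where the limit that a count of 0 allows is 6.99 CPM. Markers of other cell types also differed between the classes: 6 of 6 endothelial, 3 of 6 mesenchymal and 1 of 2 mesothelial markers tested were higher in BEC. In BEC the mesothelial markers summed to 112 CPM (D25 B) and 124 CPM (STOP). Without BEC and hepatocytes that carried markers of another lineage, the differences were 8.78, 6.70 and 5.28 for Krt19, Krt7 and Krt23, all called.

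Krt8 and Krt18, the pair that builds the hepatocyte's own filaments, were abundant in both classes. Krt8 stood at 3611 and 2774 CPM in BEC of D25 B and STOP and at 2179 and 1194 CPM in their hepatocytes. Krt18 stood at 4751 and 2905 CPM in BEC and at 3073 and 1300 CPM in hepatocytes. Both were higher in BEC in each library, by a fitted log2 fold change of 0.42 ± 0.48 for Krt8 (edgeR adjusted p = 0.555) and 0.34 ± 0.49 for Krt18 (edgeR adjusted p = 0.651), while the median over all genes tested was 0.76.

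Free RNA held Krt19 and Krt8 in another ratio than the hepatocytes did. Barcodes below 100 UMIs had 55.5 Krt19 UMIs per 100 Krt8 UMIs in D25 B and 41.0 in STOP. The hepatocytes had 1 Krt19 UMI to 300 Krt8 UMIs in D25 B and 0 to 348 in STOP.

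Genes for proteins that tie keratin filaments to the membrane were mostly higher in BEC. Of 15 keratin linkers of desmosomes and hemidesmosomes, 14 were tested and 10 were higher in BEC, with a median log2 fold change of 3.25 over the list. The median over all genes was 0.76. Plec (plectin), which links filaments to hemidesmosomes, was higher by 4.78 ± 0.75 (SE), and Itga6 and Itgb4, the hemidesmosome integrin, by 4.44 ± 1.05 and 3.64 ± 1.22. Among 12 components of Mallory-Denk bodies 2 were called higher in BEC, a share near the 15.3% of all genes: Cryab, a small heat shock protein that binds filaments, by 5.28 ± 0.73, and Hspa1a, an inducible chaperone, by 3.15 ± 1.01. Of 14 other keratins 2 were tested, and Krt17, a keratin of basal and injured epithelia, was called higher in BEC.

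Whether the keratins of BEC differ between DDC and steady state was asked next, with 8 DDC libraries. Krt7, Krt8, Krt18 and Krt19 were higher in each of these 8 than in D0 A, and Krt23 was lower in each. D3 A, which had too few BEC (14), had 81.8 CPM of Krt7 (47 to 133), 1779 CPM of Krt8 (1597 to 1976) and 1830 CPM of Krt18 (1646 to 2030), not above D0 A. Krt19 had 713 CPM in D0 A, 1423 and 1535 CPM at onset (D3 B and D5 B), and 1961 (D9 A), 1592 (D9 B), 1360 (D19 A), 1403 (D19 B), 2060 (D25 A) and 1778 CPM (D25 B) at progression. The lowest DDC library thus lay well above D0 A. Krt7 had 153 CPM in D0 A, 166 and 328 CPM at onset, and 281, 351, 720, 341, 344 and 535 CPM at progression in the same order. The D3 B value hardly differed from D0 A, and D19 A was the highest. Krt18 had 1955 CPM in D0 A, 2738 and 4238 CPM at onset, and 2838, 3585, 3935, 3428, 3778 and 4751 CPM at progression. Krt8 had 2275 CPM in D0 A, 3016 and 3581 CPM at onset, and 2849, 3240, 2800, 2739, 3066 and 3611 CPM at progression. Both genes of the pair thus lay above D0 A throughout.

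Krt23, a type I keratin whose function in bile ducts is little known, went the other way. It had 238 CPM in D0 A, 145 CPM in D3 B and 170 CPM in D5 B. At progression it had 58.4 (D9 A), 86.8 (D9 B), 84.9 (D19 A), 114 (D19 B), 75.2 (D25 A) and 106 CPM (D25 B). D0 A lay above both onset libraries, and these above all 6 progression libraries. D0 B, at 30.5 CPM in gated cells that mostly lacked biliary markers, broke this order. Of the 13041 genes tested, 28.9% were lower in all 8 DDC libraries than in D0 A. The share of BEC with a Krt23 UMI at 1500 UMIs a cell followed the same order, at 26.3% in D0 A, 17.2% and 17.3% at onset and 6.94% to 13.6% at progression.

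**Figure D2:**
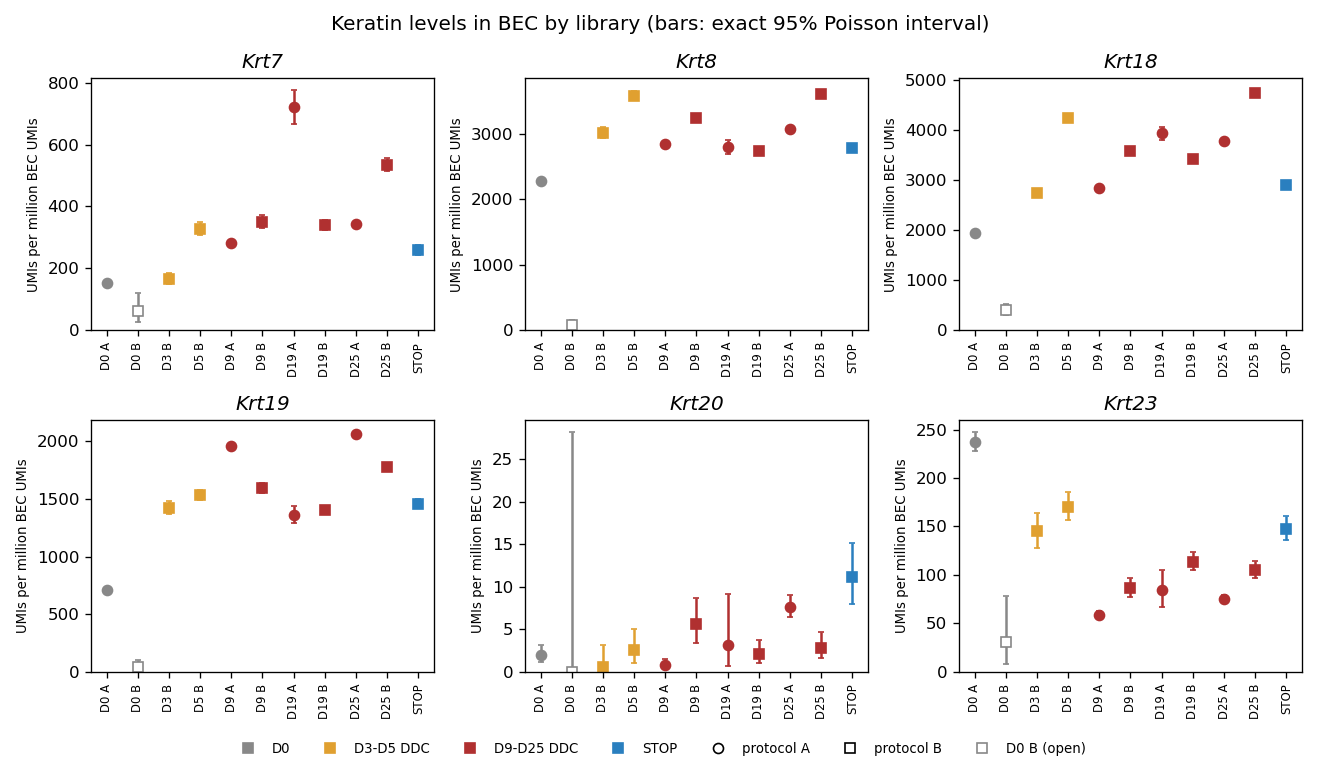
Level of each keratin in BEC (CPM) in 11 libraries, with exact 95% Poisson intervals that cover counting error only. Krt7, Krt8, Krt18 and Krt19 of the 8 DDC libraries lie above D0 A, Krt23 lies below it, and the open square is D0 B, whose gated cells mostly lack biliary markers.

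Non-overlap with a single library is a weak statement: 13.5% of the 13041 genes tested were higher in all 8 DDC libraries than in D0 A. D0 B, whose gated cells mostly lacked biliary markers, adds no further steady state BEC, so its values are a description. Krt7 (61.1 CPM), Krt8 (84.0 CPM), Krt18 (405 CPM) and Krt19 (45.8 CPM) were lower there than in D0 A. These 4 members were among the 7.17% of genes whose DDC libraries all lay above both D0 libraries (3.39% lay below both). Krt23 had 30.5 CPM in D0 B (4 UMIs), below every DDC library, so its order held against D0 A only.

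No member passed the test of the DDC stages against D0 with protocol as covariate, in which edgeR called 2 of the 13041 genes (0.0153%), both lower and neither a keratin. At an unadjusted p of 0.05, edgeR had 1619 genes, and DESeq2 called 467 after adjustment. The log2 fold change was 2.65 ± 0.68 (SE) for Krt19 (edgeR adjusted p = 0.194), 2.06 ± 0.85 for Krt8 (0.361), 1.90 ± 0.53 for Krt18 (0.212), 1.71 ± 0.51 for Krt7 (0.24), 0.86 ± 1.17 for Krt20 (0.83) and -0.28 ± 0.49 for Krt23 (0.882). These values rest on D0 B: without it, edgeR called 77 of 14462 genes (0.532%, with 0.159% higher and 0.373% lower) and again no member. Krt19 then differed by 1.5 ± 0.40 (edgeR adjusted p = 0.109), Krt7 by 1.38 ± 0.61 (0.256), Krt18 by 0.98 ± 0.43 (0.257), Krt8 by 0.59 ± 0.36 (0.384) and Krt23 by -1.19 ± 0.27 (0.0803). Without D0 A, the differences of Krt7, Krt8, Krt18 and Krt19 stayed above 0 and that of Krt23 turned to 1.86. This fit had D0 B alone at steady state, whose cells mostly lacked biliary markers. DESeq2 called Krt7, Krt18 and Krt19 higher (adjusted p 0.0346, 0.0038 and 0.000489), and so did edgeR without a filter, which also called Krt8, both with D0 B included. Both of these fits called many more genes in all than the 2 of the main fit.

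The cell mixtures of the stages also differed. In BEC the hepatocyte markers summed to 6585 CPM in D0 A and 1564 to 4624 CPM in the 8 DDC libraries, and leukocyte markers to 221 CPM and 471 to 969 CPM, and their part in the keratin differences was not tested. The share of large duct-gated cells among BEC was 68 of 677 in D0 A and 6.94% to 47.3% in the 8 DDC libraries, and these cells had more Krt19 and, in 8 of 9 libraries, less Krt23 than other BEC. In BEC with no UMI of the 3 large duct genes the order held: Krt19 had 519 CPM in D0 A and 672 to 1434 CPM in the DDC libraries, Krt7 had 136 CPM against 153 to 865 CPM, and Krt23 had 253 CPM against 81.1 to 209 CPM. In the large duct-gated BEC of the 7 DDC libraries with 20 or more of them it held for Krt19 only (1954 CPM in D0 A against 2144 to 3096 CPM). Krt7 had 252 CPM there in D0 A, above D3 B (194 CPM) and D9 B (189 CPM). Krt8 had 2629 CPM, above D3 B (2491 CPM), D9 B (2572 CPM) and D19 B (2559 CPM). Krt18 had 2087 CPM, above D3 B (1853 CPM), and Krt23 had 143 CPM, below D5 B (242 CPM). Within protocol A, all BEC of D9 A, D19 A and D25 A gave the same order against D0 A. D3 A, also of protocol A but with 14 BEC, did not for Krt7, Krt8 and Krt18. For protocol B no D0 library with biliary cells was at hand. The share of all genes with such an order was not computed within duct subsets or within protocol A, so these orders are weak statements.

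Between onset and progression, Krt23 was lower in all 6 progression libraries than in both onset libraries, as were 4.01% of the 13041 genes. Its level was 145 and 170 CPM at onset and 87.5 ± 20.1 CPM (SD, n = 6) at progression. The fitted log2 difference of -0.93 ± 0.44 (SE) had an unadjusted p of 0.058 and an adjusted p of 1 in edgeR. No gene passed this test (0%; 483 had an unadjusted p under 0.05 in edgeR, and DESeq2 called 3). Krt7 differed by 0.56 ± 0.46, Krt8 by -0.47 ± 0.69, Krt19 by -0.24 ± 0.55 and Krt18 by -0.13 ± 0.46, and none of them passed. The protocol term and the spread of this fit were estimated with D0 A and D0 B included. D0 B cells mostly lacked biliary markers, so these errors do not measure the spread among DDC libraries alone. The sign for Krt18 and Krt19 turned when D0 B was left out of the shared fit. The 2 onset libraries were both of protocol B, since D3 A and D5 A held too few BEC. The 3 progression libraries of protocol B had Krt23 at 86.8, 114 and 106 CPM, also below both. In other BEC the order held, with 209 CPM in D3 B, 164 CPM in D5 B and at most 146 CPM (D19 B) at progression. In large duct-gated BEC it did not, as D3 B had 23.0 CPM. That was below every progression library with 20 or more such cells, at 24.6 (D19 B) to 51.1 CPM (D9 B).

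The make-up of the keratin UMIs differed between D0 A and the 8 DDC libraries with 20 or more BEC. The 6 keratins took 0.534% of all BEC UMIs in D0 A and 0.749% to 1.08% in the DDC libraries. Krt18 UMIs per Krt8 UMI were 0.859 in D0 A, 0.908 in D3 B, 1.18 in D5 B, 0.996 in D9 A, 1.11 in D9 B, 1.41 in D19 A, 1.25 in D19 B, 1.23 in D25 A and 1.32 in D25 B. Among these 9 libraries D0 A was thus the lowest, and the 4 libraries of D19 and D25 were the 4 highest. All type I UMIs per type II UMI were 1.20 in D0 A, 1.35 and 1.52 at onset and 1.47 to 1.74 at progression. Krt23 supplied 4.45% of the keratin UMIs in D0 A and 0.731% to 1.94% in the DDC libraries, and Krt19 supplied 13.4% in D0 A and 15.3% to 24.5% in the DDC libraries. Within other BEC Krt19 supplied 10.2% in D0 A and 12.5% to 14.3% in 7 of the 8 DDC libraries, but 8.84% in D3 B. Within large duct-gated BEC it supplied 27.6% in D0 A and 28.0% to 38.7% in 6 of the 7 DDC libraries with 20 such cells, but 26.8% in D5 B. The order of Krt18 UMIs per Krt8 UMI held within other BEC, with 0.876 in D0 A, but not within large duct-gated BEC. There D3 B (0.744) lay below D0 A (0.794), and D5 B (1.078) lay above D19 B (1.070). The D0 B library, with 63 type I and 19 type II keratin UMIs in its BEC, did not share the values of D0 A: it had 4.82 Krt18 UMIs per Krt8 UMI and 3.32 type I UMIs per type II UMI, both above every DDC library, and the keratins took 0.0626% of its UMIs, with Krt23 at 4.88% and Krt19 at 7.32% of them. The smaller libraries did not all follow, as the 6 keratins took 0.512% in the 14 BEC of D3 A, and the 4 BEC of D5 A had 0.821 Krt18 UMIs per Krt8 UMI and 1.18 type I UMIs per type II UMI. These ratios are descriptions, with 1 library at steady state.

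**Figure D3:**
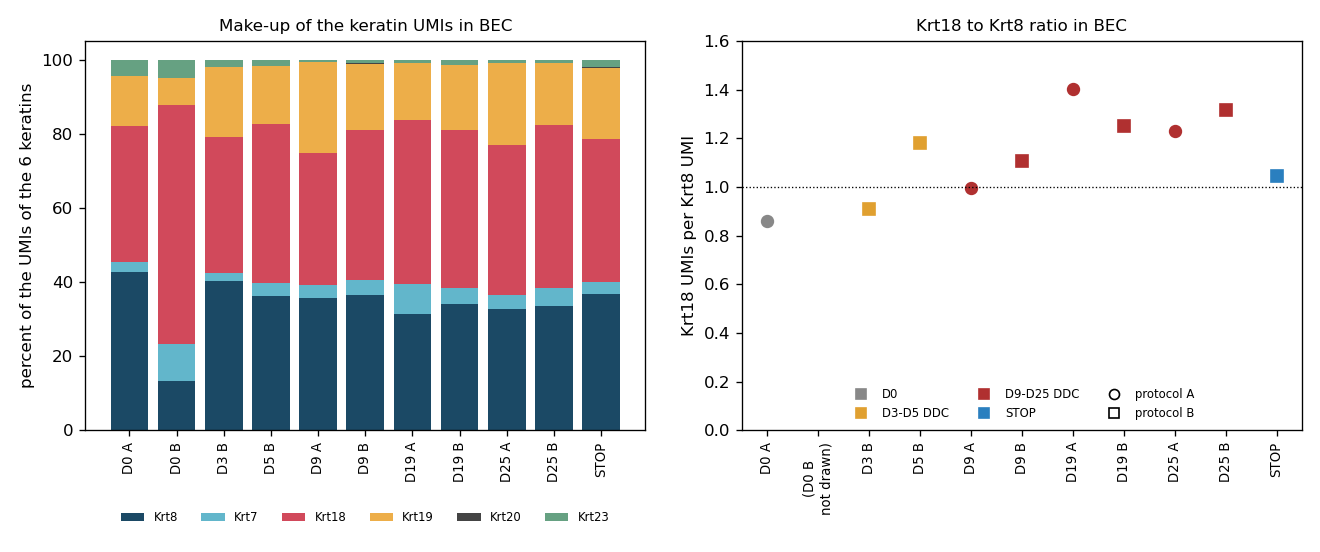
Left, percent of the UMIs of the 6 keratins that each contributed in BEC of 11 libraries. Right, Krt18 UMIs per Krt8 UMI in BEC, with D0 B left out for its few UMIs; the ratio is lowest in D0 A (0.859) among the libraries shown and above 1.2 in all 4 libraries of D19 and D25.

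After 7 days of recovery, Krt7 and Krt18 were lower than in D19 B, the protocol B library of that time, and Krt23 was higher. Krt7 had 259 CPM in STOP (95% Poisson interval 243 to 276) and 341 CPM in D19 B (325 to 357). Krt18 had 2905 CPM (2850 to 2961) against 3428 CPM (3378 to 3478). Krt23 had 148 CPM (136 to 161) against 114 CPM (105 to 123). Each of these 3 values in STOP lay between D19 B and D0 A, which had 153, 1955 and 238 CPM. D0 A is of protocol A and STOP and D19 B are of protocol B, and the share of all genes with such an order was not computed. For Krt7 the D19 A and D19 B libraries differed by more than STOP and D19 B did, and for Krt18 and Krt23 by nearly as many CPM. Krt19 had 1459 CPM in STOP and 1403 CPM in D19 B, with intervals that overlapped, and Krt8 had 2774 and 2739 CPM, also overlapping. Both remained above D0 A. Krt20 showed the largest ratio, with 11.2 CPM in STOP (8.03 to 15.2) against 2.07 CPM (1.04 to 3.71). The 41 UMIs of STOP lay in only 12 cells, of which 1 held 12, while the interval takes UMIs as independent counts. Large duct-gated BEC held 39 of them (48.8 CPM against 6.36 CPM in D19 B), and other BEC had 1 UMI in STOP and 3 in D19 B. Krt18 UMIs per Krt8 UMI were 1.05 in STOP against 1.25 in D19 B. The duct subsets did not all follow. In large duct-gated BEC, Krt7 was higher in STOP (372 against 298 CPM), as were Krt8 (3492 against 2559 CPM), Krt19 (2767 against 2449 CPM) and Krt23 (109 against 24.6 CPM), while Krt18 was level at 2735 and 2740 CPM. In other BEC, Krt7 was lower in STOP (229 against 363 CPM), as were Krt18 (3177 against 3724 CPM) and Krt8 (2683 against 2866 CPM). With 1 library each there is no test, and the intervals cover counting error only, as PCR copies and animals are not in them.

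Large duct-gated BEC, with at least 2 UMIs over Dmbt1, Muc4 and Sox17, were set against BEC with none of these in 9 libraries, which asks whether the keratins differ along the biliary tree. Krt19 was higher in large duct-gated cells in 9 of 9 libraries, Krt20 was higher as well, Krt23 was lower, and Krt7 and Krt8 did not pass the test. Krt19 ranged from 1954 to 3096 CPM (median 2767) in large duct-gated cells and from 519 to 1434 CPM in the other BEC of the same libraries, so the groups did not overlap. The log2 fold change was 1.49 ± 0.15 (SE, edgeR adjusted p = 3.61e-06), and 7.34% of 12454 genes were higher in every library. The largest ratio was 4.29 in D3 B and the smallest 1.64 in D9 B.

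Krt23 was lower in large duct-gated cells in 8 of 9 libraries. It had 143 against 253 CPM in D0 A, 23.0 against 209 CPM in D3 B, 33.3 against 92.1 CPM in D9 A, 51.1 against 102 CPM in D9 B and 24.6 against 146 CPM in D19 B. It had 38.7 against 108 CPM in D25 A, 35.9 against 127 CPM in D25 B and 109 against 176 CPM in STOP. D5 B was the exception, with 242 CPM in 27 large duct-gated cells against 164 CPM. In these cells 3 of 6 large duct markers were found in at least 10% of cells, against 6 of 6 in D0 A, D3 B, D9 A and D9 B. Endothelial markers summed to 708 CPM in them and 213 CPM in other BEC of D5 B, and to 627 and 63.6 CPM in D9 B. Endothelial-gated cells of D5 B and D9 B themselves had 1 of the 6 large duct markers in at least 10% of cells. The part of endothelial RNA in the gate and in the Krt23 difference was not tested. The log2 fold change was -1.17 ± 0.26 (SE, edgeR adjusted p = 0.0027).

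Krt20, a keratin of intestinal and urothelial surface cells, was rare but concentrated in this subset. Large duct-gated cells held 100 of the 148 Krt20 UMIs in BEC of D25 A, 39 of 41 in STOP, 15 of 18 in D0 A, 12 of 15 in D25 B, 10 of 19 in D9 B, 8 of 11 in D19 B, 7 of 10 in D9 A, 0 of 8 in D5 B and 0 of 1 in D3 B. The log2 fold change was 2.75 ± 0.61 (SE, edgeR adjusted p = 0.00265), higher in 7 of 9 libraries. Few cells carried it: the UMIs of D25 A lay in 54 of 1145 BEC, of which 1 held 33, and those of STOP in 12 of 311. In D3 B and D5 B, with 23 and 27 large duct-gated cells, no Krt20 UMI was found in them, and the limit that a count of 0 allows is 4.93 and 9.32 CPM.

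Krt18 was slightly lower in large duct-gated cells, by -0.28 ± 0.10 (SE, edgeR adjusted p = 0.041), in 7 of 9 libraries after TMM scaling. This call was lost in 9 of 16 alternative analyses, among them the removal of D3 B, D5 B, D9 B, D19 B, D25 A or D25 B in turn (adjusted p up to 0.117) and a gate read at equal depth (adjusted p = 0.109). The fit at equal depth also left out D5 B, which then had too few large duct-gated cells. Krt7 differed by 0.02 ± 0.19 and Krt8 by -0.04 ± 0.11, with signs that turned with the analysis. Krt7 had 252 against 136 CPM in D0 A and 372 against 229 CPM in STOP, but 312 against 615 CPM in D25 B and 189 against 433 CPM in D9 B. Of the 6 members, 2 were called higher and 2 lower, in a comparison where edgeR called 41.1% of 12454 genes, 20% higher and 21.1% lower.

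**Figure D4:**
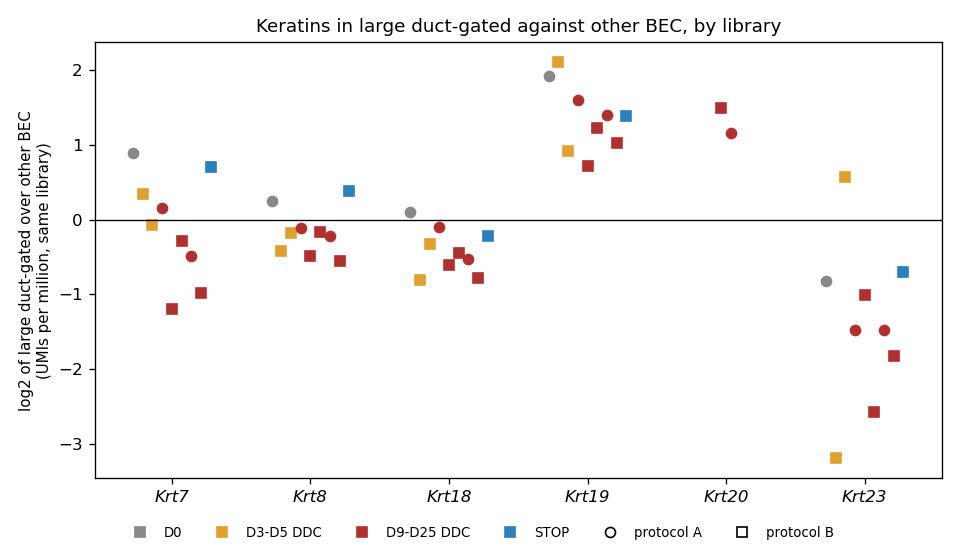
Log2 ratio of the level in large duct-gated BEC over other BEC of the same library, 1 point per library, for each keratin with more than 3 UMIs in both groups of cells. Krt19 lies above 0 in 9 of 9 libraries, Krt23 below 0 in 8 of 9, and Krt7 on both sides.

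The gate depends on depth, as the median BEC had 8610 to 21616 UMIs in the other BEC and 11548 to 25333 in the large duct-gated cells of these libraries. With the gate read on each BEC thinned to 5000 UMIs, the calls for Krt19, Krt20 and Krt23 stood. That fit left out D5 B, where 11 large duct-gated cells remained, so the effect of depth alone was not tested. Marker lists moved with the gate too. Of 13 BEC markers tested, 9 were lower in large duct-gated cells and 2 higher, and of 10 hepatocyte markers 5 were lower and 2 higher, with Alb lower by -2.51 ± 0.30. Higher were 3 of 7 endothelial and 2 of 6 mesenchymal markers, and lower were 2 of 6 leukocyte markers and 1 of 3 mesothelial markers. Their part in the keratin differences was not tested.

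Lists of genes around the keratins were read against the 20% of genes called higher and 21.1% called lower. Of 14 keratin linkers tested, 5 were higher and 4 lower in large duct-gated cells, with a median log2 fold change of 0.09 against -0.03 over all genes. Dsg2, a desmosomal cadherin, was lower by -1.19 ± 0.10 (SE) and Dsc2, its partner, by -0.90 ± 0.17, whereas Jup (plakoglobin) was higher by 0.75 ± 0.15 and Itga6 by 1.05 ± 0.12. Of 12 Mallory-Denk body components, 4 were lower and 1 higher, a share near the 41.1% of all genes. The filament-binding chaperones Hspb1 and Cryab were lower by -1.62 ± 0.21 and -1.49 ± 0.13. Krt17 was lower by -2.33 ± 0.41. Among 10 biliary transcription factors, 3 were higher and 4 lower: Klf5 was higher by 1.74 ± 0.12 and Elf3 by 1.77 ± 0.25, while Sox9, a regulator of duct identity, was lower by -1.43 ± 0.15 and Foxj1, a factor of ciliated cells, by -2.0 ± 0.21. Of 7 YAP and TEAD targets tested, 6 were lower, with a median of -0.95, Ankrd1 by -2.85 ± 0.38 and Ccn2 by -1.98 ± 0.21. In the comparisons of BEC between diet stages, no gene of these lists was called.

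Hepatocyte keratins could be read in 3 libraries. With Alb at 1% or more, Krt8 and Krt18 were low in D0 A, highest in D25 B and in between in STOP. In D0 A the 17 hepatocytes held 16 Krt8 and 5 Krt18 UMIs, or 360 CPM (95% Poisson interval 206 to 585) and 113 CPM (36.6 to 263). In D25 B the 27 hepatocytes held 300 Krt8 and 423 Krt18 UMIs, or 2179 CPM (1940 to 2441) and 3073 CPM (2787 to 3380). In STOP the 56 hepatocytes held 348 Krt8 and 379 Krt18 UMIs, or 1194 CPM (1072 to 1326) and 1300 CPM (1173 to 1438). At this Alb threshold the intervals of the 3 libraries, which cover counting error only, did not overlap for either gene. The share of all genes that separated in this way was not computed. D25 B stood 6.05 times above D0 A for Krt8 and 27.3 times for Krt18, and 1.83 and 2.36 times above STOP. The Krt18 ratio to D0 A rests on 5 UMIs there, and it was 14.8 with Alb at 0.5% or more and 22.5 with Alb at 2% or more.

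The share of hepatocytes with a UMI showed the same order. At 1500 UMIs a cell, Krt18 was found in 3 of 17 hepatocytes of D0 A (17.6%, exact 95% interval 3.80 to 43.4), 38 of 56 of STOP (67.9%, 54.0 to 79.7) and 27 of 27 of D25 B (100%, 87.2 to 100). Krt8 was found in 17.6%, 62.5% and 85.2%. The 17 cells of D0 A were shallow, with a median of 1925 UMIs against 2420 in D25 B and 3937 in STOP, and free RNA of D0 A held Krt8 at 286 CPM and Krt18 at 249 CPM, near or above the values in its hepatocytes. With Alb at 0.5% or more, 59 cells of D0 A gave 446 CPM for Krt8 and 177 CPM for Krt18, against 2621 CPM for both in 55 cells of D25 B. The 36 such cells of D19 A, a DDC library of the same protocol as D0 A, had Krt8 at 407 CPM (313 to 520), overlapping D0 A (343 to 571), and Krt18 at 350 CPM (263 to 455), just above it (115 to 261). With Alb at 2% or more, the 6 cells of D0 A had Krt8 at 695 CPM (380 to 1166), which overlapped STOP at 1031 CPM (876 to 1205), and D25 B stood 3.31 times above D0 A. D0 A is of protocol A and D25 B and STOP of protocol B, so diet and protocol cannot be told apart here, and at 1% Alb, with 1 library a condition, there is no test.

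At 0.5% Alb the hepatocyte-minus-BEC difference could be compared between DDC (D19 A and D25 B) and D0 A, in 3 libraries with library as block and 1 residual degree of freedom. No keratin passed. Relative to BEC of the same library, hepatocytes of the DDC libraries differed from those of D0 A by a log2 value of 1.5 ± 1.62 (SE) for Krt18, 0.94 ± 1.54 for Krt8 and 0.14 ± 1.76 for Krt23 (edgeR adjusted p = 1 for each) and by -3.59 ± 1.61 for Krt19 (edgeR adjusted p = 0.875), while edgeR called 7 of 9680 genes (0.0723%, with 0.0207% higher and 0.0517% lower) and 473 had an unadjusted p under 0.05. On simulated counts edgeR recovered 0 of 200 genes changed by 2 on the log2 scale in this comparison and 153 of 200 changed by 5, so a difference of 2 was not detectable here. Krt7, with 0 UMIs in the hepatocytes of all 3 libraries, had an adjusted p of 1 in edgeR, and Krt20 did not pass the filter.

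**Figure D5:**
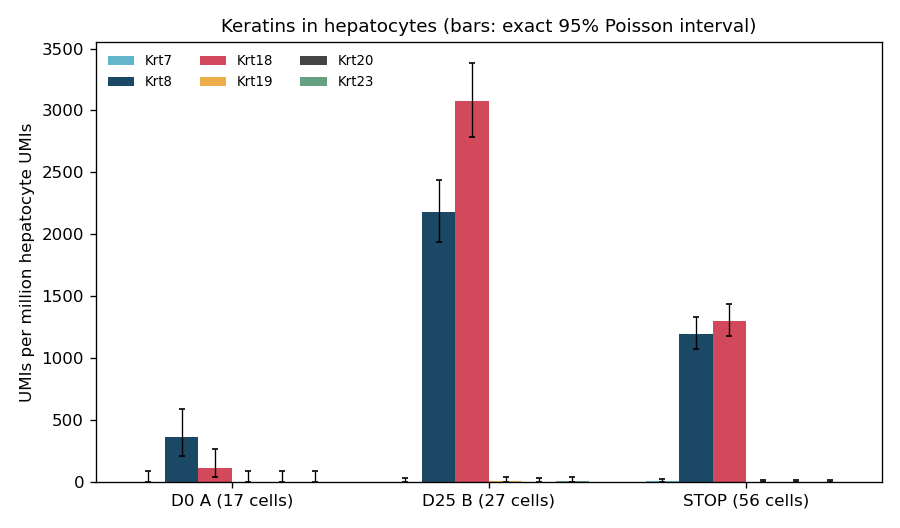
Keratin levels in hepatocytes (CPM) of the 3 libraries with most of them, with exact 95% Poisson intervals. Krt8 and Krt18 rank D25 B above STOP above D0 A, and the other keratins are at or near 0.

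The duct keratins were at or near 0 in the hepatocytes with Alb at 1% or more. Krt7 had 0, 0 and 1 UMIs, Krt19 had 0, 1 and 0, Krt23 had 0, 1 and 0 and Krt20 had none in D0 A, D25 B and STOP. For D0 A a count of 0 allows up to 67.6 CPM, so a low level was not detectable there. With Alb at 0.5% or more, the 59 cells of D0 A held 6 Krt19 UMIs (42.5 CPM, 15.6 to 92.5) and 2 Krt23 UMIs, where free RNA of D0 A held Krt19 at 103 CPM. Epcam was required to be absent in hepatocytes, so cells with both programs were not in this class.

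The values just inside and outside the gates show how far the levels depend on them. Over all libraries, cells with 1 Epcam UMI had Krt8 at 313 CPM, those with 2 had 989 CPM and those with 3 or more 2969 CPM, and Krt19 had 168, 457 and 1675 CPM. The 230 BEC with exactly 2 Epcam UMIs thus held less keratin RNA than the other 4012. For hepatocytes, Krt8 had 1498 CPM at Alb between 0.5% and 1%, 1190 CPM between 1% and 2% and 1427 CPM at 2% or more. Krt18 had 1394, 875 and 1960 CPM in the same order. These sums pool libraries that differed in level.

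The genes whose BEC level was most like that of each member over the 10 libraries without D0 B are given as a description, since the points share diet, protocol and cell mixture. Among 4731 genes, Krt18 was nearest to Rnh1, a ribonuclease inhibitor (Pearson r 0.98), Eif6, a ribosome maturation factor (0.97), and Prmt1, an arginine methyltransferase (0.97). Krt19 was nearest to Uqcrq (0.98), H2aj (0.97) and Micos13 (0.96), Krt7 to Sin3b (0.98), Cda (0.96) and Htatip2 (0.95), and Krt8 to Prelid3b (0.96), Arpc2 (0.94) and Ube2j2 (0.93). Krt23 was nearest to Naf1 (0.96), Cbx5 (0.96) and Lgalsl (0.95). Krt20, with few UMIs, reached only 0.81 (Cavin1), followed by Efna1 (0.80) and Pggt1b (0.79). Among the members, Krt8 and Krt18 had an r of 0.85, Krt7 and Krt18 of 0.83, and Krt23 had -0.72 with Krt19 and -0.62 with Krt7. With D0 B included (11 libraries) the Krt23 values turned to 0.52 and 0.20.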

How the data were processed

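Single-cell RNA-seq of mouse liver was measured in 13 libraries, 12 of the DDC atlas and 1 of recovery. The files the authors deposited hold unnormalized UMI counts of all barcodes. The submitters' processing notes name kallisto and GRCm38, and versions are not given in the sources used here. The STOP matrix is stored as barcode by gene and was transposed. Raw UMI counts were summed per library and class for classes of at least 20 cells and tested with edgeR 4.0.16 (glmQLFit, TMM, filterByExpr, Benjamini-Hochberg at 0.05) in R 4.3.3, with library as block (class comparisons) or with stage and isolation protocol as terms. DESeq2 1.42.0 was the alternative tool. CPM were computed from class totals without TMM. Exact 95% intervals (Poisson for levels and Clopper-Pearson for the shares of cells) reflect counting alone, and the limit for a count of 0 is 3 UMIs. Cells were thinned to 1500 UMIs for shares. Mesothelial, endothelial (5 UMIs of 4 markers), mesenchymal and leukocyte gates used markers only. No doublet caller was run; cells with markers of another lineage, 1505 of 4242 BEC, were removed as an alternative.

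The 6 members, the gene lists and the gates were chosen with earlier results of these data known. The named genes were the members, up to 4 called genes a list with the largest change at a mean log2 CPM of at least 3, and the 3 genes most alike in level. Alternatives were the tool, filter, UMIs per cell, cells per library, gates, mixed cells, protocol term and each library left out, and, added after seeing the data, cells with 3 biliary markers, each duct subset alone, a gate at 5000 UMIs and a minimum of 10 cells. On counts simulated for the same genes with 200 genes changed by 2 on the log2 scale, edgeR recovered 32.5% (BEC against hepatocytes), 31.5% (DDC against D0), 54.5% (onset against progression) and 96% (duct subsets). Contrasts of diet stages within hepatocytes could not be run, as 1 atlas library held 20 hepatocytes and, at 0.5% Alb, the 3 that did leave no residual degree of freedom beside the protocol term. The difference between hepatocytes and BEC was compared between DDC and D0 at 0.5% Alb only (interaction of class and diet), and no onset library held enough hepatocytes to compare it with progression. RefSeq gave positions and promoters.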

Additional observations from a re-analysis of the deposited data

Results flagged for a closer look

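In large duct-gated BEC of D9 to D25, Krt7 of the D9 B library stood apart from the others: it was at 189 CPM (204 UMIs in 49 cells), against 286 to 312 CPM in the other 4 libraries of these stages. The gap to the nearest library was 0.788 of the whole range. This was 1 of 21 groups of libraries examined in this way, and about 1 in 20 such groups is picked out by chance. In the other BEC of D9 B, Krt7 was at 433 CPM, within the 264 to 865 CPM of the other D9 to D25 libraries.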

How the results depend on the processing

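Under the alternatives run for each, Krt7, Krt19 and Krt23 stayed called in BEC against hepatocytes (6 alternatives each), as did Krt19, Krt20 and Krt23 between duct subsets (16 each). For BEC against hepatocytes DESeq2 called 1129 genes instead of 2760. Requiring 3000 UMIs or 50 cells, or leaving out either library, left too few libraries, so these were not run. For the hepatocyte-minus-BEC difference between DDC and D0, where edgeR called 7 genes at 0.5% Alb, DESeq2 called 4 and the fit without a filter 6 (both added after seeing the data), and the cause was not tested. Leaving out D19 A or D25 B left no residual degree of freedom, and without D0 A there is no D0 library.

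For DDC against D0, where edgeR called 2 genes, the count was 467 with DESeq2, 679 without a filter, 77 at 50 cells, 85 with stricter gates, 9 without mixed cells, 1 without the protocol term, 82 in BEC with 3 biliary markers, 1 in other BEC only and 0 in large duct-gated BEC only. Leaving out 1 library gave 0 to 1488 genes. The fits at 50 cells, with stricter gates, with 3 biliary markers or on large duct-gated BEC only leave out D0 B, which then has too few cells, and the cause of the other moves was not tested. The Krt20 difference reversed to -4.46 in large duct-gated BEC only. With 1 library left out it ranged from -0.44 (without D25 A) to 6.77, and that of Krt23 from -1.19 to 1.86 (without D0 A).

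For D9-D25 against D3-D5, where edgeR called 0, DESeq2 called 3, the fit without a filter 59, and leaving out 1 library 0 to 0. The Krt18 difference reversed to 0.11 at 50 cells, 0.11 with stricter gates, 0.040 without the protocol term, 0.11 in BEC with 3 biliary markers and 0.078 in large duct-gated BEC only, and ranged from -0.45 to 0.28 with 1 library left out (above 0 without D0 A, D0 B or D5 B). The Krt19 difference reversed to 0.055 at 50 cells, 0.055 with stricter gates, 0.16 without the protocol term and 0.053 in BEC with 3 biliary markers, and ranged from -0.45 to 0.055 with 1 library left out (above 0 without D0 A or D0 B). Krt20 reversed to -0.42 in other BEC only.

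Between duct subsets the uncalled Krt7 difference reversed to -0.034 without a filter, -0.0017 with stricter gates and -0.21 without mixed cells, and ranged from -0.11 to 0.18 with 1 library left out. The Krt8 difference reversed to 0.011 at 50 cells and 0.042 with the gate at 5000 UMIs, and ranged from -0.11 to 0.025 with 1 library left out. Without thinning, the median share of BEC with a UMI moved to 81.8% (Krt7), 97.3% (Krt8), 97.5% (Krt18), 92.9% (Krt19), 2.6% (Krt20) and 53.2% (Krt23). The class comparisons were paired, with library as block. For the diet stages, no paired analysis was possible because the labels give no replicate numbers, and the A and B libraries of a time differ in isolation protocol, which is a term of those fits.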

Other observations

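Libraries below 20 cells of a class entered no comparison. The 14 BEC of D3 A had Krt8 at 1779 CPM, Krt18 at 1830 CPM, Krt19 at 1237 CPM, Krt23 at 189 CPM and Krt7 at 81.8 CPM, and 12 of them had at least 3 biliary markers. The 4 BEC of D5 A had Krt8 at 3109 CPM, Krt18 at 2552 CPM, Krt19 at 1269 CPM, Krt7 at 259 CPM and Krt23 at 168 CPM. In D3 A Krt7, Krt8 and Krt18 thus lay below the 153, 2275 and 1955 CPM of D0 A and Krt19 above its 713 CPM. The Krt23 values of both lay below the 238 CPM of D0 A and above the 58.4 to 114 CPM of the progression libraries. The 3 hepatocytes of D9 A held 66 Krt8, 27 Krt18 and 1 Krt19 UMIs, and the 3 of D19 A held 28 Krt8 and 19 Krt18 UMIs, with no Krt7, Krt20 or Krt23 UMI in either.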
